A study of Sus scrofa with 16 samples.

Results

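Windows of the pig genome in which methylation peaks followed opposite elevations in Tibetan and Yorkshire pigs were examined as 2 classes. In the home class, peaks were found in Tibetan highland (TH) and Yorkshire lowland (YL) pigs and in neither Yorkshire highland (YH) nor Tibetan lowland (TL) pigs. Each breed thus had them in its group that was not moved. In the moved class, peaks were found in YH and TL pigs and in neither TH nor YL pigs. The members were chosen by the number of peaks over base 250 of each 500 bp window on chromosomes 1 to 18, with at least 2 peaks in each of the 2 groups with peaks and 0 in each of the other 2. Of 4898750 windows, 620135 had a peak in any group, and 3026 of these were home and 856 moved windows. Hearts were taken at 6 months of age from castrated boars, and 4 animals per group (16 in all) were used for the peaks. The TH and YH animals lived at 3000 m from conception on, and the TL and YL animals at 100 m. YH and TL pigs were 1 generation removed from herds relocated some 3 years before, so that moving and elevation go together within a breed. Feeding was kept the same only among pigs at the same elevation.

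DNA methylation in mammals is mainly found at the cytosine of CpG dinucleotides, where it is laid down by DNA methyltransferases and lost by failure to copy it or by active removal. It is dense over repeats, gene bodies and much of the intergenic genome and scarce at active promoters and enhancers, and it is known to differ between cell types and genotypes. In MeDIP-seq, sheared DNA is pulled down with an antibody against 5-methylcytosine and sequenced, and a peak marks a stretch where fragments pile up over the local background. A stretch without a called peak may still be methylated, because few CpGs or shallow sequencing can leave it under the limit for a call. The reference bases of the windows were not used here, so CpG content is not given. In whole heart tissue, methylation in fewer cells and less methylation per cell cannot be told apart.

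Each group has a single deposited list of peaks, in which no animal is named. The YL list was the longest, with 332078 peaks and 13893033 tags (reads) in them, and the TL list the shortest, with 259066 peaks and 8639855 tags. The YH list held 287224 peaks with 11333828 tags and the TH list 280678 peaks with 10518464 tags. No window was under more than 4 peaks of a list, which is the number of animals in a group, but which animal a peak came from is not given. In the TH list, 100907 peaks (36.0%) have a dash in place of their end. These peaks never overlapped each other, while the other 179771 TH peaks lay up to 3 deep. With 1 list per group there is no spread between animals, and no test between groups was made.

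With all peaks, home windows outnumbered moved windows 3.54 to 1, an order that turned without the TH peaks listed with a dash. The 3026 home windows made up 0.488% of the windows with a peak in any group and the 856 moved windows 0.138%. Home windows were thus 77.9% of the 3882 members (95% Wilson confidence interval 76.6–79.2%, counting error only, with neighbouring windows counted separately). The home class needs peaks in the list with most peaks and tags (YL) and none in that with fewest (TL), and the moved class the reverse. Sequencing depth was not examined, and the cause of the home share was not tested. With equal numbers of peaks by tags in each list, 2510 home and 1149 moved windows were found, a home share of 68.6%. Without the TH peaks listed with a dash, 1041 home and 1191 moved windows were found, and the home share fell to 46.6%. By construction, this setting makes 2 TH peaks harder to reach and 0 TH peaks easier. At least 1 peak with a dash lay over 84.1% of the home windows, and over 86.6% of all windows with 2 or more TH peaks.

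With all peaks, among the 6 ways to choose 2 of the 4 groups, the home class was the second in number after the class of both Yorkshire groups, and the moved class was the last. Peaks in YH and YL with none in TH and TL were found in 6071 windows (0.979%), and peaks in TH and TL with none in YH and YL in 1548 (0.25%). Peaks in both highland groups alone were found in 954 windows (0.154%) and peaks in both lowland groups alone in 1105 (0.178%). This order changed without the TH peaks listed with a dash, where 1041 home, 1191 moved, 8617 Yorkshire, 1822 lowland, 722 Tibetan and 387 highland windows were found. The home class was then the fourth in number and the moved class the third. With at least 3 peaks in each group with peaks, 174 home windows (0.0281%) and 50 moved windows (0.00806%) remained, beside 46 highland and 56 lowland windows. Set against all windows with at least 2 peaks in the same pair of groups, home windows were 2.6% of 116235 and moved windows 0.9% of 95086, while the Yorkshire class was 4.7%, the Tibetan class 1.68%, the lowland class 1.1% and the highland class 0.915% of theirs. At least 2 peaks of a list were found in 33.8% of the windows with any peak in YL, 28.1% in YH, 27.3% in TH and 22.4% in TL.

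**Figure D1:**
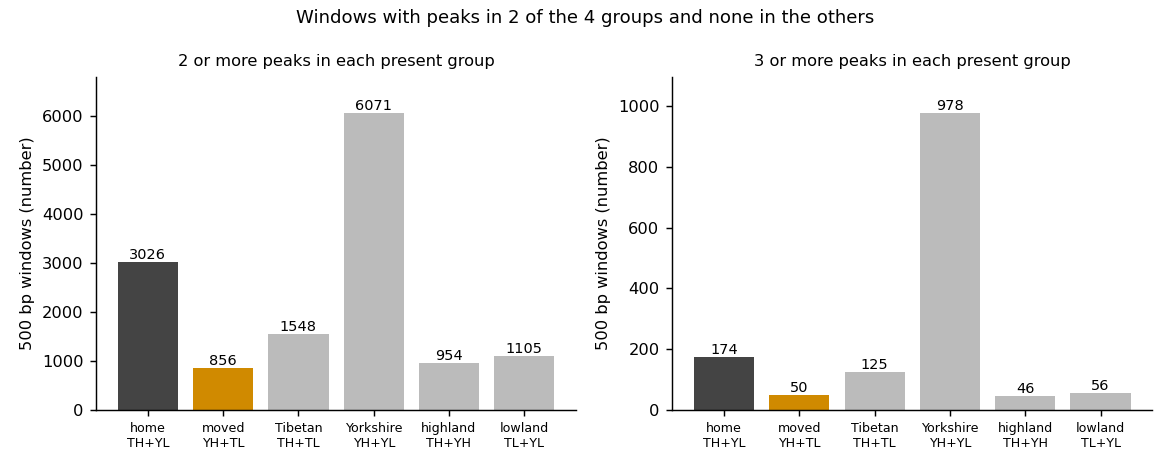
Number of 500 bp windows (vertical axis, linear) with at least 2 peaks (left) or at least 3 peaks (right) in each of the 2 groups named under a bar and 0 in the other 2 groups. Home windows (dark) number 3026 and 174 and moved windows (orange) 856 and 50, and the Yorkshire class is the highest in both panels with 6071 and 978. Without the TH peaks listed with a dash, home and moved windows number 1041 and 1191 (not drawn).

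Most members sat at the lower limit of the rule. In the home class, 1813 windows (59.9%) had 2 TH and 2 YL peaks, 566 had 2 TH and 3 YL peaks, 393 had 3 TH and 2 YL peaks, and 145 had 3 of each. There were 4 TH peaks in 33 home windows and 4 YL peaks in 78, and 2 home windows had 4 of each. In the moved class, 519 windows (60.6%) had 2 YH and 2 TL peaks, 137 had 2 YH and 3 TL peaks, 116 had 3 YH and 2 TL peaks, and 43 had 3 of each. There were 4 YH peaks in 24 moved windows and 4 TL peaks in 17, and no moved window had 4 of each. The mean number of peaks was 2.21 (TH) and 2.29 (YL) over home windows and 2.25 (YH) and 2.25 (TL) over moved windows. The rule and the depth of the lists held these means between 2 and 4 in advance.

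Just outside the rule, 5899 windows had 1 TH peak with 2 or more YL peaks, and 5075 had 2 or more TH peaks with 1 YL peak, again with none in YH and TL. A further 4081 windows missed the home class by 1 YH peak and 2992 by 1 TL peak. For the moved class, 2034 windows had 1 YH peak with 2 or more TL peaks, and 2048 had 2 or more YH peaks with 1 TL peak. Another 924 windows missed the moved class by 1 TH peak and 1566 by 1 YL peak. The windows just outside each limit outnumbered the class in each of these counts but that of 1 TL peak for the home class.

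Joined where they touch, the home windows formed 2062 regions and the moved windows 657. A lone window made up 67.9% of the home and 75.5% of the moved regions, and 69 home and 9 moved regions held 4 or more windows. The longest home regions, singled out after their lengths were seen, spanned 5000 bp each on chromosome 4 of Sscrofa10.2. One ran from 114125501 to 114130500 with 2 TH and 2 YL peaks in each window, and the other from 142123001 to 142128000 with 2 TH and 3 YL peaks. Both thus had the fewest TH peaks that the rule allows. Whether any of these TH peaks is listed with a dash is not given here. The longest moved region ran over 3000 bp on chromosome 7, from 117570001 to 117573000, with 3 YH and 3 TL peaks in each of its 6 windows.

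The absence of peaks in the other 2 groups often ended within a few kilobases. No base of the window was under a YH or TL peak in 2251 home windows (74.4%), and no base was under a TH or YL peak in 589 moved windows (68.8%). Within 1000 bp of the window, 1697 home windows (56.1%) and 456 moved windows (53.3%) were free of such peaks, and within 2000 bp 1376 (45.5%) and 347 (40.5%) were. The corresponding shares within 1000 bp were 65.2% in the Tibetan, 51.9% in the lowland, 46.3% in the highland and 45.6% in the Yorkshire class. At a distance of 1000 bp from home windows, averaged over both sides, the mean number of peaks was 0.664 in TH and 0.804 in YL, against 0.219 in YH and 0.203 in TL. At 5000 bp it was 0.162 in TH, 0.213 in YL, 0.182 in YH and 0.152 in TL. At 1000 bp from moved windows, the means were 0.612 in YH and 0.562 in TL, against 0.266 in TH and 0.292 in YL. The gap between the pairs of groups was thus narrow, and over all windows of the 18 chromosomes the means were 0.158 in YL, 0.135 in YH, 0.127 in TH and 0.112 in TL. The peaks that made a window a member can reach into nearby windows, so the means close to members follow in part from the rule.

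**Figure D2:**
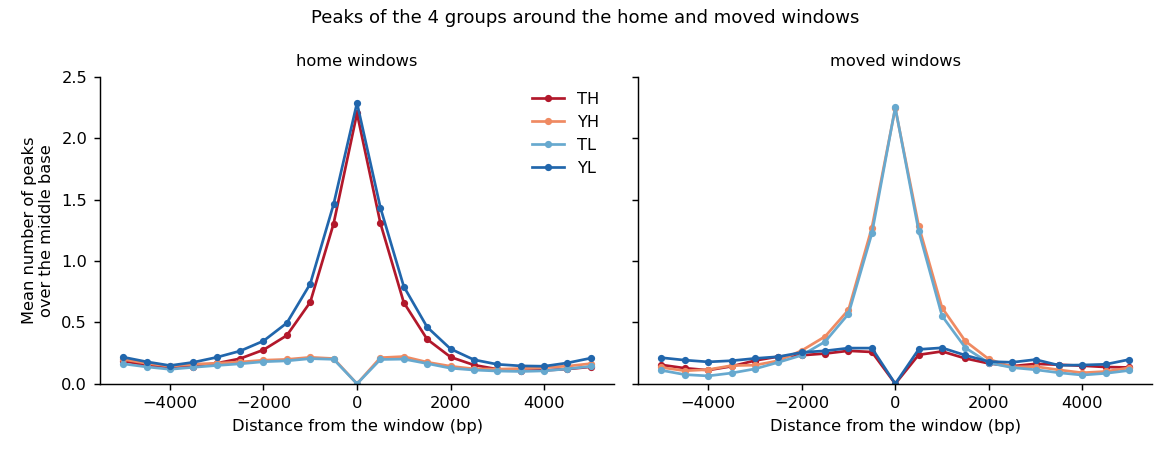
Mean number of peaks (vertical axis, 0 to 4 possible) of TH, YH, TL and YL over the middle base of windows up to 5000 bp to either side of the home windows (left, n = 3026) and the moved windows (right, n = 856). The values at distance 0 follow from the rule, and those nearby do so in part, as the peaks that made a window a member can reach there. At 1000 bp the groups with peaks are at 0.664 and 0.804 around home windows and at 0.612 and 0.562 around moved windows.

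A peak summit of TH or YL fell inside 1704 home windows (56.3%), and summits of both groups inside 1255 (41.5%). For moved windows, a summit of YH or TL fell inside 554 (64.7%), and of both groups inside 399 (46.6%). Over the other windows with at least 2 peaks in the same pair of groups, a summit of either group was found in 65.2% for TH and YL and in 68.1% for YH and TL, and the shares over members were below these in both classes.

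In median tags, the peaks over members were close to the whole of their lists. The home windows were covered by 4565 TH peaks with a median of 29 tags (quartiles 19 and 51) and by 4720 YL peaks with a median of 34 tags (22 and 60). The medians over all peaks on chromosomes 1 to 18 were 27 tags in TH and 30 in YL. The moved windows were covered by 1479 YH peaks with a median of 26 tags (18 and 46) and by 1481 TL peaks with a median of 24 tags (17 and 39), beside 29 in YH and 25 in TL over all peaks. Home peaks thus had somewhat more and moved peaks somewhat fewer tags than the whole list. Under 20 tags were found in 1142 of the 4565 TH peaks and 864 of the 4720 YL peaks (18.3%) over home windows, where the whole lists had 30.2% and 22.6%. Such peaks made up 30.4% (YH) and 37.6% (TL) of the moved peaks, where the whole lists had 24.5% and 34.1%.

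A closer comparison is with other windows that had at least 2 peaks in the same pair of groups and at least 1 peak elsewhere. There the median was 32 tags in TH and 37 in YL for the home pair, and 36 in YH and 30 in TL for the moved pair, so that members had fewer tags in each of the 4 lists. Peaks with under 20 tags made up 19.5% (TH) and 12.1% (YL) there for the home pair, and 13.5% (YH) and 21.0% (TL) for the moved pair. The median fold enrichment (the ratio of tags to local background that the peak caller gives) was 7.79 in TH and 6.80 in YL over home windows, against 8.49 and 7.64 over the other windows. Over moved windows it was 7.14 in YH and 7.77 in TL, against 7.36 and 7.79. Home peaks had median lengths of 1097 bp in TH and 1177 bp in YL, against 1121 and 1196 bp over the other windows. Moved peaks had median lengths of 998 bp in YH and 963 bp in TL, against 1178 and 1076 bp. The quartiles of members and of the other windows overlapped for each of these measures. By construction, members lack peaks in 2 groups and the other windows do not, so the sets were chosen by detection itself. Whether the lower tags of members follow from that choice was not tested.

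**Figure D3:**
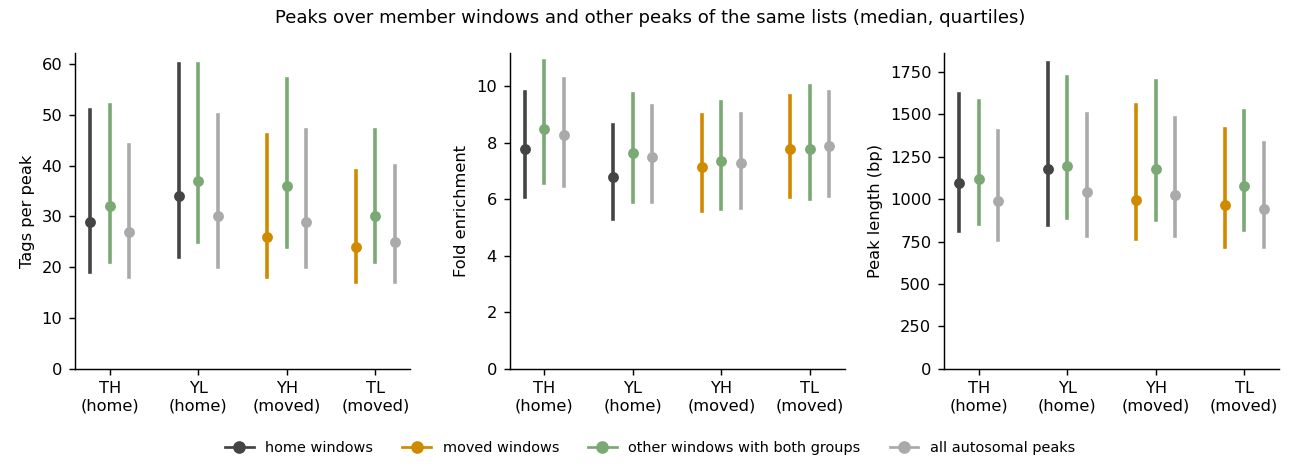
Tags per peak (left), fold enrichment (middle) and peak length in bp (right) of the peaks over home windows (TH, YL) and moved windows (YH, TL), with points for medians and lines from the lower to the upper quartile, beside peaks over other windows with at least 2 peaks in the same 2 groups (green) and all peaks of the list on chromosomes 1 to 18 (grey). Median tags over members are 29, 34, 26 and 24, below the green medians of 32, 37, 36 and 30.

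Members were spread over all 18 chromosomes, and with all peaks home windows outnumbered moved windows on each of them, but without the TH peaks listed with a dash on 4 only (chromosomes 3, 4, 9 and 15). The ratio of home to moved windows ran from 2.12 on chromosome 13 to 6.65 on chromosome 4, where there were 266 home and 40 moved windows. Without the peaks with a dash it ran from 0.641 on chromosome 10 to 1.4 on chromosome 4. As a share of windows with any peak, home windows were most frequent on chromosome 4 (0.694%) and least frequent on chromosome 13 (0.364%). Moved windows were most frequent on chromosome 11 (0.175%) and least frequent on chromosome 17 (0.0964%). Across the 18 chromosomes, home windows per Mb followed windows with any peak per Mb (Pearson's r = 0.903, Spearman's rho = 0.901), and so did moved windows (r = 0.777, rho = 0.730). These are descriptions over chromosomes that share the same 16 libraries. As shares of the windows with any peak, the classes did not rise together (r = -0.304, rho = -0.284).

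**Figure D4:**
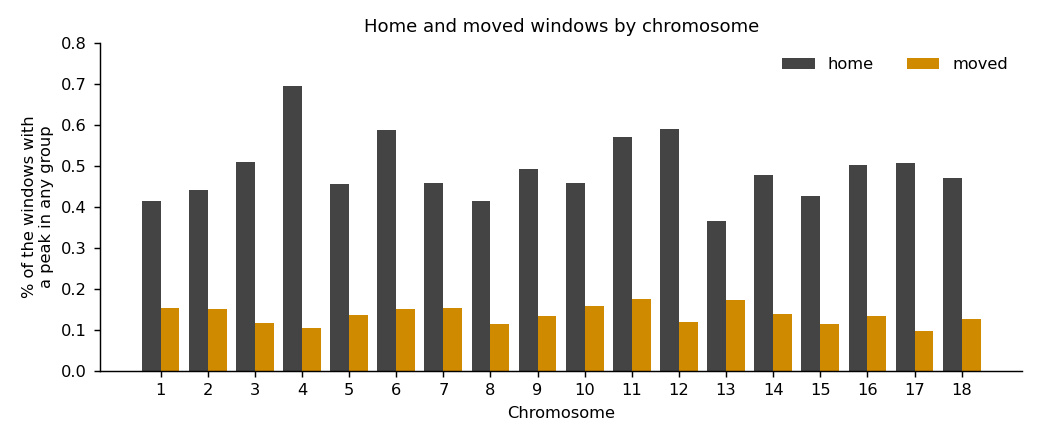
Home windows (dark) and moved windows (orange) on chromosomes 1 to 18 as a percentage of the windows with a peak in any group (vertical axis, linear). Home windows range from 0.364% on chromosome 13 to 0.694% on chromosome 4, and moved windows from 0.0964% on chromosome 17 to 0.175% on chromosome 11. Without the TH peaks listed with a dash (not drawn), moved windows are the more frequent on 14 of the 18.

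The outer 10% at each end of the chromosomes held 28.9% of the home windows (95% Wilson confidence interval 27.4–30.6%) and 25.5% of the moved windows (22.7–28.5%). Of all windows with a peak in any group, 28.92% lay there. The share of home windows was thus that of the background. That of moved windows was lower, with the upper limit of its interval (28.49%) just under the background. A lower share was not particular to moved windows, as it was 27.2% (26.1–28.3%) in the Yorkshire class. The share was 32.8% (29.9–35.9%) in the highland class. The intervals of the lowland class (27.5%) and the Tibetan class (30.2%) included the background. These intervals cover counting error only, with neighbouring windows counted separately.

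The median distance from a moved region to the nearest home region was 357500 bp, and 16 of the 657 moved regions lay within 5000 bp of a home region. Of the 2062 home regions, 44 lay as close to another home region, where the median distance was 310000 bp. The closest pair was on chromosome 1, where a moved window from 309537001 to 309537500 (2 YH and 2 TL peaks) and a home window from 309538001 to 309538500 (2 TH and 3 YL peaks) were 500 bp apart. On chromosome 2, the moved window from 85298001 to 85298500 had 4 YH and 3 TL peaks, and 1000 bp further a home window from 85299501 to 85300000 had 2 TH and 2 YL peaks. In both places the set of groups with a peak was exchanged over a short stretch. Of 2457 bins of 1 Mb with any peak, 1261 held a home window, 558 a moved window and 331 both. The most home regions in a bin were 7, from 58000001 to 59000000 on chromosome 18 and from 116000001 to 117000000 on chromosome 9, and neither bin held a moved window.

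Regions are named in order of the number of peaks over their best window, and 2 home regions had 4 TH and 4 YL peaks there. On chromosome 16, the region from 13248001 to 13249000 was under 4 TH peaks of 20, 20, 16 and 13 tags and 4 YL peaks of 23, 22, 18 and 12 tags. The fold enrichment was 11.3 to 14.5 in TH and 10.4 to 13.5 in YL. The ranges of both groups overlapped, and the nearest peaks of the other groups were 13593 bp (YH) and 1197 bp (TL) away. On chromosome 6, the window from 126395501 to 126396000 was under 4 TH peaks of 31, 17, 15 and 14 tags and 4 YL peaks of 31, 26, 22 and 19 tags. Its nearest YH peak was 13397 bp and its nearest TL peak 13510 bp away, so that no YH or TL peak was near it.

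Of the next home regions by number of peaks, the region on chromosome 8 from 41179501 to 41181000 had 3 TH peaks of 83, 55 and 39 tags and 4 YL peaks of 93, 84, 76 and 48 tags. On chromosome 16, the region from 77732501 to 77733500 had 3 TH peaks of 25, 21 and 20 tags and 4 YL peaks of 20, 19, 18 and 15 tags, with no YH or TL peak within 9771 bp. On chromosome 7, the region from 17052501 to 17053500 had 4 TH peaks of 37, 22, 16 and 16 tags and 3 YL peaks of 40, 28 and 19 tags. In these 3 regions, too, the tags of TH and YL overlapped, on chromosome 16 only at 20 tags. On chromosome 1, the window from 41506001 to 41506500 had the highest fold enrichment among the first 10 home regions, at 12.4 to 16.3 in its 4 TH peaks and 9.98 to 13.5 in its 3 YL peaks, but a TL peak touched the window beside its middle base. On chromosome 3, the region from 36005001 to 36006000 lay on the flank of long peaks of 54 to 128 tags in TH and 48 to 85 in YL and was touched by YH and TL peaks. Of the first 10 home regions, 7 had no YH or TL peak within 1000 bp, and 10 included a TH peak listed with a dash and still had at least 2 TH peaks without it.

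The first moved regions were supported by 7 peaks each or fewer. On chromosome 13, the region from 13635001 to 13636000 was under 3 YH peaks of 22, 17 and 16 tags and 4 TL peaks of 23, 17, 15 and 15 tags, and the nearest TH and YL peaks were 3285 and 3242 bp away. A second window on chromosome 13, from 167213001 to 167213500, was under 4 YH peaks of 19, 16, 16 and 14 tags and 3 TL peaks of 16, 12 and 12 tags. The tags of both groups overlapped in each of these. The fewest tags of any peak were 13 in the YH list and 11 in the TL list. On chromosome 10, the window from 22344501 to 22345000 had 3 YH peaks of 108, 61 and 56 tags and 4 TL peaks of 43, 42, 38 and 35 tags. Each YH peak there had more tags than each TL peak, while fold enrichment overlapped, at 9.79 to 11.42 in YH and 7.69 to 13.55 in TL. TH and YL peaks touched this window beside its middle base.

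The moved regions of rank 8 to 10 were the longest of these and had 3 peaks in each group. The region of 3000 bp on chromosome 7 named above was under 3 YH peaks of 148, 115 and 95 tags and 3 TL peaks of 124, 110 and 93 tags. Its fold enrichment was low, at 3.96 to 5.01 in YH and 3.87 to 6.09 in TL, and the nearest TH and YL peaks were 3829 and 2293 bp away. On chromosome 9, the region from 3813501 to 3815500 was under 3 YH peaks of 196, 163 and 87 tags and 3 TL peaks of 178, 73 and 64 tags, with no TH or YL peak within 6190 bp. On chromosome 1, the region from 164852001 to 164854000 was under 3 YH peaks of 100, 98 and 88 tags and 3 TL peaks of 97, 52 and 33 tags, and a TH peak ended 31 bp from it. Of the first 10 moved regions, 4 had no TH or YL peak within 1000 bp.

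**Figure D5:**
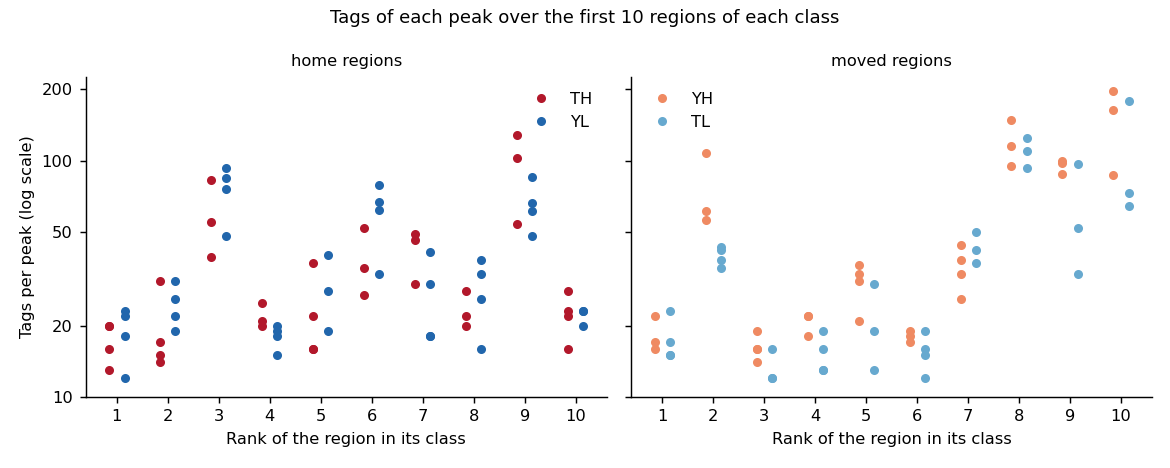
Tags of each peak (vertical axis, log scale) over the window with most peaks in the first 10 home regions (left, TH and YL) and the first 10 moved regions (right, YH and TL), in order of rank, where peaks with equal tags share a point. The home peaks run from 12 to 128 tags and the moved peaks from 12 to 196, and the groups overlap in most regions, while in the moved region of rank 2 each YH peak lies above each TL peak.

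Genes could be placed only where a member lies between windows that the study's annotated list puts in the same gene, and this was done after the members' values were seen. That list is of regions the study called differentially methylated between these groups, so its genes were not chosen independently of the animals used here. The part of the list used here covers few chromosomes. Of 42 genes with at least 2 such windows, 8 held a member, between windows listed as intronic. These were ENG, LIPC, PARK2, SMYD3, UBAP1, CAMK1D, PITPNC1 and LOC780417, with 10 home regions and 1 moved region in all. Their spans were of unequal length, from 7428001 to 8241000 in PARK2 and from 36003001 to 36768500 in UBAP1. Over all the windows examined, home windows numbered 1.24 and moved windows 0.349 per Mb. It was not tested whether 8 of 42 is more than spans of such lengths would hold elsewhere. Whether a member is in an intron or an exon is not given, and the annotation of other genes was not used here. Without the TH peaks listed with a dash, 5 of these 10 home regions kept at least 2 TH peaks and 5 did not. Those that did not were the regions of ENG, CAMK1D and LOC780417 and both regions of PITPNC1.

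ENG encodes endoglin, a co-receptor for TGF-beta on endothelial cells that is needed for blood vessel formation. Its home region on chromosome 1, from 302245001 to 302246500, was under 2 TH peaks of 52 and 47 tags and 3 YL peaks of 56, 52 and 48 tags. The nearest YH and TL peaks were 7340 and 7728 bp away, and 1 of the 2 TH peaks is listed with a dash. The region lies between listed windows of ENG that start at 302235501 and end at 302263000. PITPNC1, which encodes a phosphatidylinositol transfer protein, had 2 home regions on chromosome 12. That from 14301001 to 14302000 was under 2 TH peaks of 45 and 24 tags and 3 YL peaks of 98, 86 and 31 tags, with no YH or TL peak within 5352 bp. The other, from 14125001 to 14125500, was under 2 TH peaks of 72 and 68 tags and 2 YL peaks of 85 and 69 tags, with a TL peak at 211 bp. The group ranges overlapped in ENG and in the region from 14301001, while in the region from 14125001 they overlapped only between 69 and 72 tags.

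PARK2 encodes parkin, a ubiquitin ligase that marks damaged mitochondria for removal, and held members of both classes on chromosome 1. The home region from 7878501 to 7879500 was under 3 TH peaks of 26, 18 and 15 tags and 3 YL peaks of 36, 35 and 31 tags. Each YL peak there had more tags than each TH peak, but tags are counts without normalization. In fold enrichment the order was the reverse, at 7.57 to 8.23 in TH and 4.87 to 5.45 in YL. The home window from 8220001 to 8220500 was under 3 TH peaks of 137, 82 and 48 tags and 2 YL peaks of 54 and 43 tags, and a YH peak touched it. The moved window from 7723001 to 7723500 was under 2 YH peaks of 57 and 51 tags and 2 TL peaks of 109 and 31 tags, with a TH peak 85 bp away. The members of PARK2 were thus of opposite classes, within a span of 19 listed windows from 7428001 to 8241000. Both classes within such a stretch were frequent, as 331 of the 558 bins of 1 Mb with a moved window also held a home window.

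SMYD3, a lysine methyltransferase gene, had a home window on chromosome 10 from 21192501 to 21193000. It was under 3 TH peaks of 64, 64 and 61 tags and 2 YL peaks of 174 and 136 tags, a YH peak touched it, and a TL peak lay 238 bp away. CAMK1D, a calcium- and calmodulin-dependent kinase gene, had a home region on chromosome 10 from 64998001 to 64999000 under 2 TH peaks of 38 and 26 tags and 2 YL peaks of 36 and 25 tags, and a YH peak touched it. LIPC, the hepatic lipase gene, had a home window on chromosome 1 from 125540501 to 125541000 under 3 TH peaks of 32, 28 and 19 tags and 2 YL peaks of 35 and 34 tags. Tags of TH and YL overlapped in CAMK1D and not in SMYD3 or LIPC. In fold enrichment the groups did overlap in SMYD3 (3.58 to 6.02 in TH, 3.38 to 4.82 in YL). They also did in LIPC (7.45 to 9.07 in TH, 7.01 to 8.29 in YL). In CAMK1D they did not (7.32 and 7.96 in TH, 5.21 and 6.17 in YL). The home window between the UBAP1 windows on chromosome 10, from 36090001 to 36090500, had 2 TH and 3 YL peaks and was touched by YH and TL peaks, as was that of LIPC. Its place in UBAP1 rests on 3 listed windows that lie far apart. The home region of LOC780417 on chromosome 13, from 11445501 to 11446500, had 2 TH peaks of 15 and 14 tags and 3 YL peaks of 22, 20 and 19 tags, and its nearest YH and TL peaks were 5861 and 25279 bp away. Its tags did not overlap between TH and YL, while fold enrichment did (6.54 to 8.66 in TH, 7.49 to 9.03 in YL).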

How the data were processed

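Per the labels and the study's methods, MeDIP-seq reads of 50 bp were cleaned with FASTX 0.0.13 and mapped with Bowtie 0.12.8, for which the genome was Sscrofa10.2 of Ensembl release 69. Peaks are those MACS 1.4 called, with 50 as the lowest DiffScore kept. In the deposited lists, tags per peak are counts without normalization, fold enrichment is a ratio given by the authors' peak caller, and positions, lengths and summits are in bp. Peak ends were taken from the joint start and end column.

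Peaks of each list over base 250 of each 500 bp window were counted, and the rule of each class was applied. Reads per animal were not analysed here. The members and lists were chosen with earlier results of these data known. The counting was tested on simulated data. Regions named were those with most peaks over a window, then most windows, then highest summed fold enrichment, 10 per class. Of the 3443 windows used from the study's annotated list, none that was a member carried a gene symbol, so genes were placed by enclosing intronic windows. Chromosome lengths were the largest peak ends. Alternatives were other windows, limits, tag minimums and equal numbers of peaks, and, chosen after seeing the data, leaving out the TH peaks listed with a dash. The work was done in Python (3.11.15) with pandas (2.3.3) and NumPy (2.4.6), Spearman's rho and Wilson intervals came from SciPy (1.17.1), and plots were drawn with Matplotlib (3.10.9).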

Additional observations from a re-analysis of the deposited data

Results flagged for a closer look

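Chromosome X and the unplaced scaffolds were outside the windows used above, and the same rule found members there. On chromosome X, 127 windows were home and 8 moved, which were 0.601% and 0.0378% of the 21144 windows with any peak. At least 2 peaks were found there in 6578 windows for YL and 4143 for TH, the home pair, and in 4909 for YH and 1986 for TL, the moved pair. On 2417 scaffolds, 144 windows were home and 49 moved, which were 0.433% and 0.147% of the 33259 windows with any peak.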

How the results depend on the processing

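No paired analysis was possible because the peaks carry no animal names, and for the same reason leaving out each animal in turn was not run. Of 34 values recomputed, 19 stayed within 1.5 times the count or within the confidence interval of the share, and home windows outnumbered moved windows under 9 of 10 alternatives. The exception was the TH list without the peaks listed with a dash, with 1041 home windows and a home share of 46.64%. Windows of 1000 bp gave 1531 home and 410 moved windows, being fewer in all. At least 3 peaks gave 174 and 50, at most 1 peak in each absent group 15736 and 5841 (home share 72.93%), and no absent group's peak within 1000 bp 1697 and 456, as their limits make them stricter or wider. The home share was 81.45% with at least 20 tags and 68.6% with equal numbers of peaks, and the cause was not tested. The outer 5% at each end held 16.29% of home and 13.2% of moved windows, beside 15.7% of all windows with a peak. The TL list had the fewest tags.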
